A study of Mus musculus with 10 samples.

Results

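The genes described here code for the factors that carry out cytosolic translation and for the enzymes that load tRNAs with amino acids. They were chosen by gene symbol alone, as the eIF and eEF families, the release factors Etf1 and Gspt, the cytoplasmic poly(A)-binding proteins, the Aimp scaffold proteins and the aminoacyl-tRNA synthetases. Of the 8694 genes listed in any of the 4 deposited tables, 76 matched. The mouse annotation (RefSeq, GRCm38.p6) holds 121 protein-coding genes whose symbols match, and 75 of these were listed.

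RNA was sequenced from E14 mouse embryonic stem (ES) cells grown on gelatin. The Mbd3abc KO line carries CRISPR/Cas9 mutations in exon 5 of Mbd3, the Mbd3cΔN-ab KO and Mbd3ab KO lines in exon 2, and the Mbd3c KO line in intron 2. The WT cells are E14 without such a mutation. Mbd3 is a subunit of NuRD, a complex that moves nucleosomes and deacetylates histones, and the mutants lack or alter its isoforms a, b and c as named. Each of the 5 groups held 2 libraries that the labels call biological replicates. The column headers give the 2 libraries of each mutant different names, but no source used here says whether they came from separate clones, so p-values measure the spread between these libraries. The comparisons ask which genes changed with the loss of which isoforms, each mutant against the same 2 WT libraries.

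Translation starts when the eIF4 factors bring an mRNA's cap to the small ribosomal subunit, on which eIF1, eIF1A, eIF3 and eIF2 with the initiator tRNA search for the start codon. The elongation factors eEF1 and eEF2 then deliver charged tRNAs and move the ribosome, and eRF1 with eRF3 releases the finished chain. Each amino acid has a synthetase that joins it to its tRNAs, mostly with separate cytosolic and mitochondrial enzymes, and several cytosolic ones sit with scaffold proteins in the multi-synthetase complex. The transcription factor ATF4, translated when eIF2 is phosphorylated, is known to switch on many cytosolic synthetase genes together with genes of amino acid synthesis and uptake.

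Mbd3abc KO cells had lower RNA levels of most cytosolic and mitochondrial synthetases and of every listed eIF2B subunit, and higher levels of the alpha and beta subunits of eIF2, of release factors and of a share of eIF3 and eIF4 factors. In Mbd3cΔN-ab KO cells most listed synthetases and every listed eIF2B subunit were also lower, and Eif2s1 and Eif2s2 were higher. By the authors' test (adjusted p under 0.05), 70 of the genes passed in Mbd3abc KO cells, 28 higher and 42 lower, where 52.1% of the 15622 genes tested were called. In Mbd3cΔN-ab KO cells 62 were called, 25 higher and 37 lower, where 41.5% of 14429 genes tested were called. DESeq2 refits without the first or the second WT library called 46 and 45 of the translation genes in Mbd3abc KO, where 3515 and 3647 of all 8132 called genes passed. The same refits called 30 and 30 in Mbd3cΔN-ab KO, where 1624 and 1669 of all 5989 passed. The share of called genes that were higher was 40% for the translation genes and 52.1% for all called genes in Mbd3abc KO, and 40.3% and 50.9% in Mbd3cΔN-ab KO. The median deposited log2 fold change was -0.62 for these genes and 0.46 for all listed genes in Mbd3abc KO, and -0.51 and 0.37 in Mbd3cΔN-ab KO. The tables list selected genes, so these shares describe listed genes and not all 121 of the annotation.

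Mbd3ab KO and Mbd3c KO had no such gene in their tables. The authors' deposited tables called 442 genes in Mbd3ab KO (3.35% of 13201 tested by DESeq2, 2.05% higher and 1.3% lower), of which 0 were translation genes. They called 38 genes in Mbd3c KO (0.353% of 10759 tested, 0.316% higher and 0.0372% lower), of which again 0 were translation genes. Genes below the threshold are not listed there, so neither their values nor their unadjusted p-values were analysed, and no other tool could be run.

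**Figure D1:**
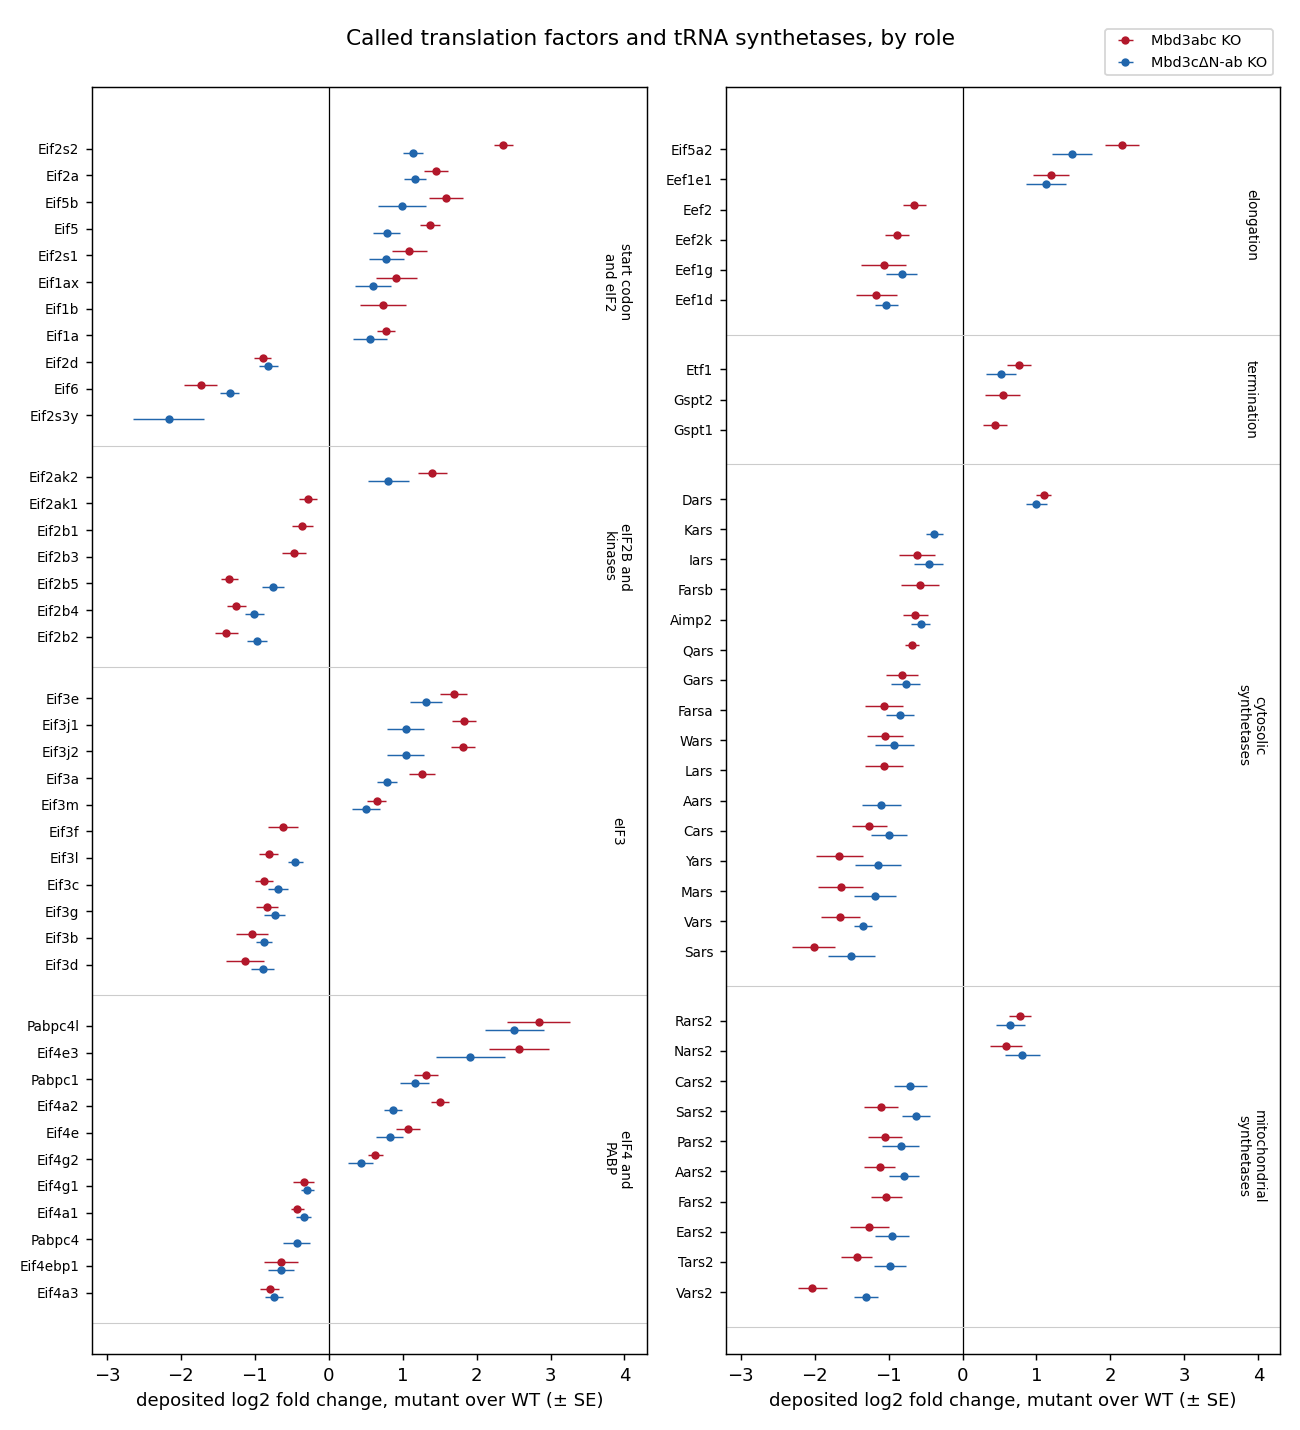
Deposited log2 fold change, mutant over WT, with its standard error, for each called translation factor and synthetase, grouped by role. Red points are Mbd3abc KO and blue points Mbd3cΔN-ab KO. Cytosolic synthetases and eIF2B subunits lie left of 0 apart from Dars, and the eIF2 subunits Eif2s1 and Eif2s2 and the release factors lie right of 0.

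The targeted gene and the cell type were checked first. Mbd3 had 108 and 158 normalized reads in the Mbd3abc KO libraries, against 1775 and 1689 in the WT libraries, and 299.6 and 292 in the Mbd3cΔN-ab KO libraries, against 1685 and 1614 in the WT libraries of that table. Normalized reads are reads divided by the library's size factor, set separately in each table. Of 12 ES cell markers, 3 were called higher and 5 lower in Mbd3abc KO, with Pou5f1 at 2816 and 4647, against 10868 and 11648 in WT. In Mbd3cΔN-ab KO 1 was called higher and 6 lower. Of 7 trophectoderm markers, 3 were called higher in Mbd3abc KO (Eomes, Krt8 and Krt18), with a summed level, over the markers listed in that table, of 1708 and 951 against 266 and 325 in WT. In Mbd3cΔN-ab KO 2 were called higher (Eomes and Krt8) and 2 lower (Hand1 and Tfap2c), with a summed level of 890.3 and 813 against 1296 and 1278 in WT. Most of that WT sum was Tfap2c, which had 162 and 395 against 1135 and 1076 in WT. Tfap2c was not listed for Mbd3abc KO, so the sums of the 2 mutants cover different markers. Of 4 neuroectoderm markers 3 were called lower in each mutant. Of 5 endoderm markers none was listed, and of 6 fibroblast markers 1 was called higher and 1 lower in each mutant. Their part in the results below was not tested. In bulk RNA, fewer cells of a kind and less RNA per cell cannot be told apart. By the value of 1 read in the authors' scaling, the second WT library held 1.59 times the reads of the first, the Mbd3abc KO libraries 1.23 and 1.33 times and the Mbd3cΔN-ab KO libraries 0.94 and 1.38 times.

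Cytosolic synthetase genes fell almost throughout. Of the 14 listed for Mbd3abc KO, 13 (the list includes the scaffold Aimp2) fell and Dars rose, with a median log2 fold change of -1.06. In Mbd3cΔN-ab KO cells 12 of 13 fell and Dars rose, with a median of -0.93. For comparison, all called genes of Mbd3abc KO numbered 8132, of which 3892 fell (24.9% of all genes tested) and 52.1% rose. Those of Mbd3cΔN-ab KO numbered 5989, of which 2938 fell (20.4% of all genes tested) and 50.9% rose. Sars, the seryl-tRNA synthetase, had 984 and 1619 normalized reads in the Mbd3abc KO libraries, against 5304 and 5920.4 in the WT libraries. Both mutant libraries lay far below both WT libraries, with the first mutant library lowest, a 4.31-fold lower mean. The authors' deposited table gives a log2 fold change, mutant over WT and shrunken by DESeq2, of -2.01 ± 0.29 (SE, adjusted p = 3.58e-11). In Mbd3cΔN-ab KO cells Sars had 1180.3 and 2212, against 5034 and 5658 in WT, a 3.15-fold lower mean (adjusted p = 1.13e-05 in the authors' deposited table). Vars, the valyl-tRNA synthetase, had 2617 and 4058 in Mbd3abc KO, against 11233 and 10692 in WT, and 3838 and 4293 in Mbd3cΔN-ab KO, against 10661 and 10219 in WT. Vars was 3.28-fold lower in Mbd3abc KO and 2.57-fold lower in Mbd3cΔN-ab KO (DESeq2 adjusted p = 2.43e-09 and 2.40e-25 in the authors' deposited tables). Yars, the tyrosyl-tRNA synthetase, fell to 714 and 1284 in Mbd3abc KO, against 3414 and 3381 in WT (3.40-fold lower, DESeq2 adjusted p = 8.68e-07 in the authors' deposited table). It fell to 941 and 1769 in Mbd3cΔN-ab KO, against 3240.0 and 3232 in WT (2.39-fold lower, DESeq2 adjusted p = 0.00109 in the authors' deposited table). Again the first mutant library of each pair was the lower one and the WT libraries lay close together. Aars, the alanyl-tRNA synthetase, was listed only for Mbd3cΔN-ab KO, with 2760.1 and 4482, against 8016 and 8349.9 in WT (2.26-fold lower, DESeq2 adjusted p = 1.78e-04 in the authors' deposited table).

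Among the synthetase genes and Aimp2 that fell, the second mutant library was the higher one for 12 of 13 in Mbd3abc KO and for 11 of 12 in Mbd3cΔN-ab KO. It was the higher one for 2502 of all 3892 genes that fell in Mbd3abc KO (64.3%) and for 1855 of 2938 in Mbd3cΔN-ab KO (63.1%). For these genes the second mutant library stood at a median of 1.49 times the first in Mbd3abc KO and 1.42 times in Mbd3cΔN-ab KO. For all genes that fell, the same median was 1.10 in Mbd3abc KO and 1.07 in Mbd3cΔN-ab KO. Despite this spread every called gene, these and all others in both tables (100% of 8132 and of 5989), had its mutant and WT libraries apart.

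**Figure D2:**
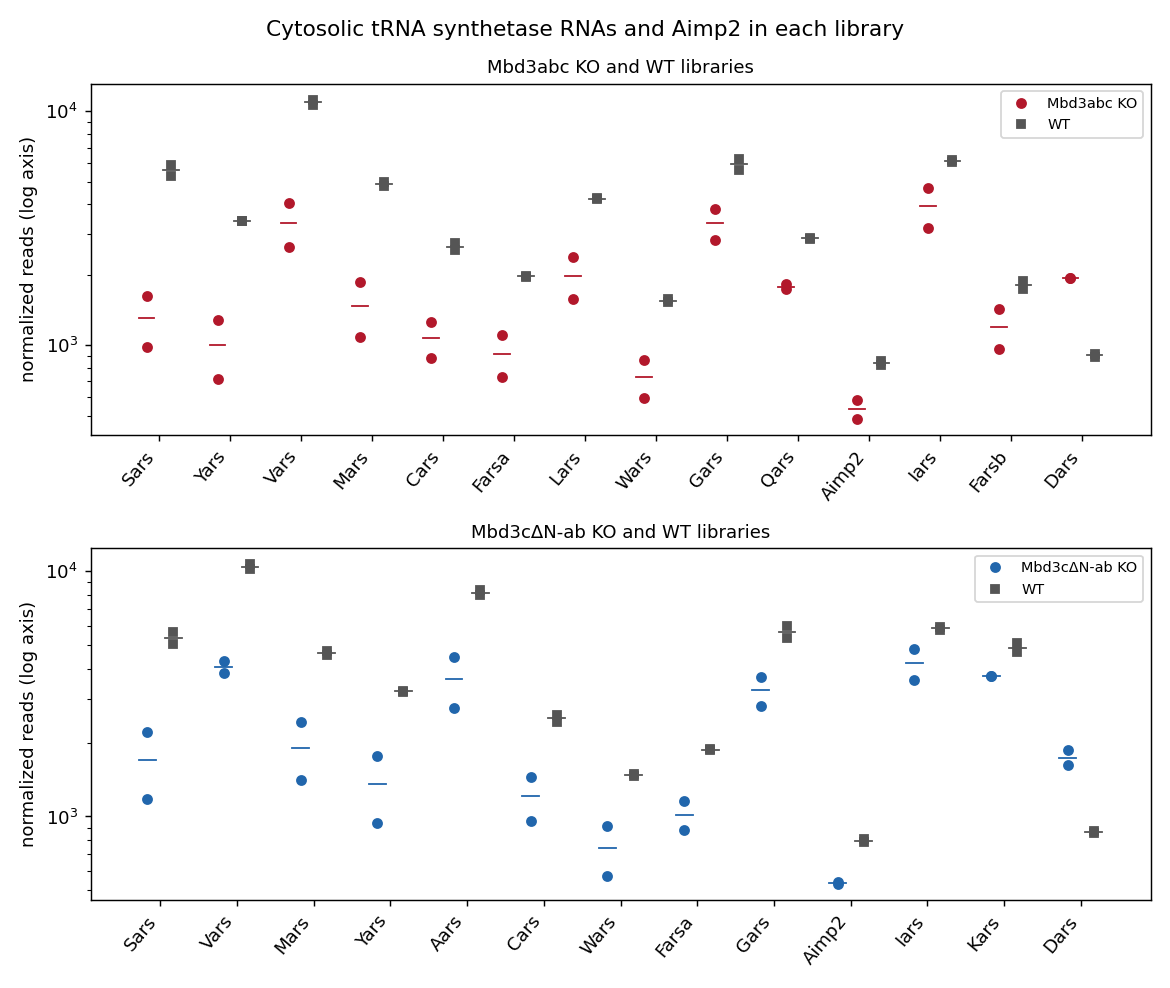
Normalized reads (log axis) of the cytosolic synthetases and Aimp2 in each library of Mbd3abc KO with WT (top) and of Mbd3cΔN-ab KO with WT (bottom). Points are libraries and lines group means. The mutant points lie below the WT points for every gene except Dars, and most mutant pairs are wider apart than the WT pairs, except for Dars in the top panel and Aimp2 and Kars in the bottom panel.

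Genes of the multi-synthetase complex changed in both directions. Mars, the methionyl-tRNA synthetase, had 1084 and 1856 normalized reads in Mbd3abc KO, against 4973 and 4786 in WT (3.32-fold lower, DESeq2 adjusted p = 2.58e-07 in the authors' deposited table). Mbd3cΔN-ab KO libraries had 1403 and 2416, against 4719.6 and 4574 in WT (2.43-fold lower, DESeq2 adjusted p = 1.65e-04 in the authors' deposited table). Mars lay below WT in all 4 mutant libraries. Lars, the leucyl-tRNA synthetase, and Qars, the glutaminyl-tRNA synthetase, were listed only for Mbd3abc KO. Lars had 1576 and 2375, against 4217 and 4255 in WT (2.14-fold lower), and Qars had 1825 and 1732, against 2849 and 2882 in WT (1.61-fold lower). Iars, the isoleucyl-tRNA synthetase, was 1.56-fold lower in Mbd3abc KO and 1.39-fold lower in Mbd3cΔN-ab KO, and Kars, the lysyl-tRNA synthetase, was listed only for Mbd3cΔN-ab KO and was 1.31-fold lower there. Aimp2, a scaffold protein of the complex, had 483 and 584 in Mbd3abc KO, against 855 and 819.7 in WT (1.57-fold lower), and 540.2 and 532 in Mbd3cΔN-ab KO, against 811 and 783 in WT (1.49-fold lower). Mutant and WT libraries did not overlap for any of these, as for every called gene in both tables.

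Of the complex, Dars and Eef1e1 rose. Dars, the aspartyl-tRNA synthetase, had 1939.9 and 1947 normalized reads in Mbd3abc KO, against 918 and 894 in WT (2.15-fold higher, log2 fold change 1.10 ± 0.10 (SE), DESeq2 adjusted p = 5.15e-26 in the authors' deposited table). In Mbd3cΔN-ab KO it had 1618 and 1859.9, against 871 and 854 in WT (2.02-fold higher, DESeq2 adjusted p = 7.78e-11 in the authors' deposited table). All 4 mutant libraries lay above the WT libraries, with little spread within groups. Eef1e1, also known as AIMP3 and a scaffold protein too, had 527 and 703 in Mbd3abc KO, against 284 and 241 in WT (2.34-fold higher), and 459.6 and 695 in Mbd3cΔN-ab KO, against 270.0 and 229.9 in WT (2.31-fold higher). Counted over the 11 proteins of the complex, 2 rose and 5 fell in Mbd3abc KO, and 2 rose and 4 fell in Mbd3cΔN-ab KO. Of all called genes 52.1% rose in Mbd3abc KO and 50.9% in Mbd3cΔN-ab KO. Eprs, Rars and the scaffold Aimp1 were in neither table. In DESeq2 refits without the first or the second WT library, the adjusted p was 0.151 and 0.165 for Iars, 0.0799 and 0.0884 for Qars and 0.244 and 0.181 for Aimp2 in Mbd3abc KO. In Mbd3cΔN-ab KO the same refits gave 0.313 and 0.357 for Iars, 0.309 and 0.576 for Kars, and 0.371 and 0.291 for Aimp2. Eef1e1 had 0.0543 in Mbd3cΔN-ab KO without the second WT library, Aimp2 had 0.052 without the first Mbd3abc KO library, and Iars had 0.0812 without the first Mbd3cΔN-ab KO library. Mars and Dars passed in all 4 refits of each mutant, and Lars in all 4 of Mbd3abc KO.

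Because ATF4 and its CEBP partners are known to bind near the start of synthetase genes, promoters were searched for the letters TGATGNAA on both strands. Windows ran from 250 bases before to 50 bases after the annotated start (RefSeq, GRCm38.p6, 300 bases), and 57 of the translation genes had one. The letters were found in 4 of the 11 cytosolic synthetase and scaffold genes with a promoter (36.4%) and in 5 of all 57 (8.77%), against 3.97% of all 32851 promoters and 2.09% of the 8241 promoters of called genes. The 5 promoters are shown because they hold the letters, which stand in capitals, in the sense of the gene's strand. A match is a description of the letters and not of binding.
Yars (chr4:129189653-129189952, plus strand): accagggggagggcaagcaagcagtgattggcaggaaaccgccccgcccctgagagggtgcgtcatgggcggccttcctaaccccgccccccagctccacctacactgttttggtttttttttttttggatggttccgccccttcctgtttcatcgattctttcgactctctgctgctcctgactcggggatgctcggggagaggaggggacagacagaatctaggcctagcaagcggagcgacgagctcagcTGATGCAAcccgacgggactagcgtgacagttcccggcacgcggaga
Gars (chr6:55037751-55038050, plus strand): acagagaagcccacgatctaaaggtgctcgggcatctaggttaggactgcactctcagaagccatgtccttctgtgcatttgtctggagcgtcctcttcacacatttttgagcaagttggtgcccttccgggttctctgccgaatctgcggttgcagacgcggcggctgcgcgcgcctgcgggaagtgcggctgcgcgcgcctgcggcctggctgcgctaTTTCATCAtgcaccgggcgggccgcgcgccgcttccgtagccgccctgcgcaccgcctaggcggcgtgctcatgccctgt
Aars (chr8:111033592-111033891, plus strand): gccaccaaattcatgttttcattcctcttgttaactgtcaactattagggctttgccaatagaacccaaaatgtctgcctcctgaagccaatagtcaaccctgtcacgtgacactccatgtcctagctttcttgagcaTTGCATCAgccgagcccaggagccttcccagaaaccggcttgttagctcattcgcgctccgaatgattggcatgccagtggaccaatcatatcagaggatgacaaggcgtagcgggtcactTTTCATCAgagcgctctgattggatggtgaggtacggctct
Iars (chr13:49681880-49682179, plus strand): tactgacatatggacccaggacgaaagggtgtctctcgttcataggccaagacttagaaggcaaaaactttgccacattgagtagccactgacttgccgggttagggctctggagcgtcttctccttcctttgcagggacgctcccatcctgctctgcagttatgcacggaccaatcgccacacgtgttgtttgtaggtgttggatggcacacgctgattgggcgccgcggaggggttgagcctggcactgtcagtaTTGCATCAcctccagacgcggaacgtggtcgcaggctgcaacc
Eef2k (chr7:120850939-120851238, plus strand): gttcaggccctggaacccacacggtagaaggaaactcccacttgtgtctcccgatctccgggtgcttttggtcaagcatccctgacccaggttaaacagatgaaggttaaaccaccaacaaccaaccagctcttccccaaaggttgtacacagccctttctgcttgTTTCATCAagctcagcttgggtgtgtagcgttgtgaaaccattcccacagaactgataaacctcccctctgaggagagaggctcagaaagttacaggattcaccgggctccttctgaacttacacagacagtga
The start site of the window was that of the counted transcript for Gars, Aars and Iars, but lay 108 bases inside the counted transcript for Yars and 8358 bases inside it for Eef2k, so that window is not at the start of the Eef2k transcript whose reads were counted. Aars held 2 matches, starting 112 bases before that site and at base 10, counted from the site as base 1. Those of Yars and Iars began at bases 4 and 8, and those of Gars and Eef2k began 30 and 84 bases before it. The 4 synthetases and Eef2k, the kinase that inhibits eEF2, were all called lower where listed. Without the second WT library Gars had an adjusted p of 0.0673 in Mbd3abc KO and 0.0818 in Mbd3cΔN-ab KO, and without the first Eef2k had 0.136 in Mbd3abc KO. Sars and Dars had promoters without the letters.

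ATF4 targets outside the translation genes were counted from a list of 29 genes that includes Atf4. In Mbd3abc KO cells 19 fell and 1 rose, and in Mbd3cΔN-ab KO cells also 19 fell and 1 rose, with median log2 fold changes of -1.44 in Mbd3abc KO and -1.10 in Mbd3cΔN-ab KO. Among the 8132 called genes of Mbd3abc KO, 3892 fell (24.9% of all genes tested) and 52.1% rose. Among the 5989 of Mbd3cΔN-ab KO, 2938 fell (20.4% of all genes tested) and 50.9% rose. The called genes of the list had a median transcript GC content of 53.9% in Mbd3abc KO and 55.0% in Mbd3cΔN-ab KO, against 50.6% and 50.8% for all listed genes of the 2 tables, and the part of GC content was not tested. The one that rose was Cth, which makes cysteine from cystathionine. Atf4 itself had 896 and 1496 normalized reads in Mbd3abc KO, against 2043 and 2147 in WT (log2 fold change -0.77 ± 0.30 (SE), DESeq2 adjusted p = 0.0195 in the authors' deposited table), and it was not listed for Mbd3cΔN-ab KO. Trib3, a pseudokinase that restrains ATF4, had 103 and 173 in Mbd3abc KO, against 761 and 662 in WT, and 86.6 and 186 in Mbd3cΔN-ab KO, against 722 and 633 in WT (DESeq2 adjusted p = 1.58e-12 and 1.40e-07 in the authors' deposited tables of Mbd3abc KO and Mbd3cΔN-ab KO). Slc1a4, a neutral amino acid transporter, had 59.9 and 115 in Mbd3abc KO, against 886 and 820.5 in WT, and 118 and 295 in Mbd3cΔN-ab KO, against 841 and 784 in WT (DESeq2 adjusted p = 2.85e-18 and 9.63e-05 in the same tables). Both genes were low in all 4 mutant libraries. As with the synthetases, the second mutant library was the higher one for 17 of these 20 genes in each mutant. It was the higher one for 64.3% of all genes that fell in Mbd3abc KO and 63.1% in Mbd3cΔN-ab KO. The part of ATF4 in the changes of these genes and of the synthetases was not tested. The letters TGATGNAA were present in 6 of 19 promoters of the list's called genes (31.6%), against 2.09% of the 8241 promoters of called genes. Genes known as ATF4 targets are likely to hold such letters, so this share says nothing about the changes seen here.

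Mitochondrial synthetases, which are encoded in the nucleus and charge tRNAs inside mitochondria, also fell in the main. In each mutant 7 of 9 called genes fell and 2 rose. Median log2 fold changes were -1.10 for Mbd3abc KO and -0.79 for Mbd3cΔN-ab KO. Of all 8132 genes called for Mbd3abc KO, 3892 fell (24.9% of all genes tested) and 52.1% rose. Of the 5989 called for Mbd3cΔN-ab KO, 2938 fell (20.4% of all genes tested) and 50.9% rose. Vars2 had 184 and 233 normalized reads in Mbd3abc KO, against 915 and 839 in WT (4.21-fold lower, log2 fold change -2.03 ± 0.19 (SE), DESeq2 adjusted p = 4.87e-24 in the authors' deposited table). In Mbd3cΔN-ab KO Vars2 had 304 and 352, against 869 and 802 in WT (2.54-fold lower, DESeq2 adjusted p = 3.40e-14 in the authors' deposited table). The 4 mutant libraries lay well below WT, those of Mbd3abc KO lowest. Tars2, the mitochondrial threonyl-tRNA synthetase, had 371 and 496 in Mbd3abc KO, against 1214 and 1179 in WT (2.76-fold lower), and 467 and 654 in Mbd3cΔN-ab KO, against 1152 and 1127 in WT (2.03-fold lower). The exceptions were the arginyl and asparaginyl enzymes. Rars2 had 499 and 473 in Mbd3abc KO, against 292 and 273 in WT (1.72-fold higher), and 381 and 470.0 in Mbd3cΔN-ab KO, against 277 and 261 in WT (1.58-fold higher). Nars2 was 1.52-fold higher in Mbd3abc KO and 1.79-fold higher in Mbd3cΔN-ab KO. Vars2 and Tars2 passed in all 4 refits without 1 library in each mutant, as did Aars2 and Ears2 in Mbd3abc KO. Of the other genes that fell, Sars2 passed in 3, Fars2 in 2 and Pars2 in 1 of the 4 in Mbd3abc KO. In Mbd3cΔN-ab KO Aars2 and Ears2 passed in 2 each, Sars2 and Cars2 in 1 each and Pars2 in 0. Nars2 passed in none of the 4 refits without a library in either mutant (adjusted p between 0.271 and 0.617 in Mbd3abc KO, and between 0.0663 and 0.39 in Mbd3cΔN-ab KO). Rars2 had an adjusted p of 0.12 and 0.186 in Mbd3abc KO and 0.307 and 0.4 in Mbd3cΔN-ab KO without the first or the second WT library, and 0.262 without the second Mbd3cΔN-ab KO library. Iars2, the mitochondrial isoleucyl-tRNA synthetase, was listed for Mbd3cΔN-ab KO with an adjusted p of 0.0504, just outside the threshold, at 1534 and 1529 in the mutant against 1312 and 1175 in WT. Of a list of 15 mitochondrial translation factors outside the synthetases, 1 rose and 5 fell in Mbd3abc KO, and 1 rose and 3 fell in Mbd3cΔN-ab KO.

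Genes of start codon selection and of eIF2, the factor that brings the initiator tRNA, mostly rose. In Mbd3abc KO cells 8 of 10 called genes rose and 2 fell (median log2 fold change 1.0). In Mbd3cΔN-ab KO cells 7 of 10 rose and 3 fell (median 0.69). Genes that rose made up 4240 of all 8132 called for Mbd3abc KO (52.1% of those called and 27.1% of all genes tested). For Mbd3cΔN-ab KO they made up 3051 of 5989 (50.9% of those called and 21.1% of all genes tested). Eif2s2, the beta subunit of eIF2, showed the change with the lowest adjusted p among the translation genes of Mbd3abc KO. It had 10943 and 11208 normalized reads in the Mbd3abc KO libraries, against 1986 and 2257 in the WT libraries (5.22-fold higher, log2 fold change 2.36 ± 0.13 (SE), DESeq2 adjusted p = 1.67e-76 in the authors' deposited table). In Mbd3cΔN-ab KO it had 4390.4 and 4662, against 1885 and 2157 in WT (2.24-fold higher, DESeq2 adjusted p = 3.24e-15 in the authors' deposited table). Libraries of a group lay close together, and, as for every called gene, mutant and WT did not overlap in either table. Eif2s1, the alpha subunit whose phosphorylation limits initiation, had 2370.0 and 3273 in Mbd3abc KO, against 1202 and 1388 in WT (2.18-fold higher), and 1788 and 2575 in Mbd3cΔN-ab KO, against 1141 and 1327 in WT (1.77-fold higher). Eif5b, which joins the ribosomal subunits, had 1096 and 1518 in Mbd3abc KO, against 419.6 and 427 in WT (3.09-fold higher), and 594 and 1128 in Mbd3cΔN-ab KO, against 398 and 408 in WT (2.14-fold higher). Eif2a, an alternative carrier of initiator tRNA that is not an eIF2 subunit, was 2.78-fold higher in Mbd3abc KO and 2.27-fold higher in Mbd3cΔN-ab KO.

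Those that fell act outside the eIF2 complex, apart from a Y-linked copy. Eif6, which keeps the large subunit from joining the small one, had 638 and 898 normalized reads in Mbd3abc KO, against 2688 and 2579.7 in WT (3.43-fold lower, DESeq2 adjusted p = 1.66e-13 in the authors' deposited table). In Mbd3cΔN-ab KO it had 926 and 1029, against 2551 and 2466 in WT (2.57-fold lower, DESeq2 adjusted p = 7.45e-24 in the authors' deposited table). Eif2d, a factor of non-canonical initiation and ribosome recycling, was 1.86-fold lower in Mbd3abc KO and 1.78-fold lower in Mbd3cΔN-ab KO. Eif2s3y, the Y-linked gene of the gamma subunit of eIF2, was called only in Mbd3cΔN-ab KO, with 21.7 and 5.08, against 92.9 and 119 in WT (7.93-fold lower, DESeq2 adjusted p = 4.60e-05 in the authors' deposited table). Both mutant libraries were low and the second lowest. The other genes listed on chromosome Y there, Uba1y and Erdr1, were called lower too, Uba1y with 40.9 and 3.39 against 150.3 and 101 in WT. Eif2s3x, the X-linked counterpart of Eif2s3y, was not listed. In refits without 1 library, Eif2s3y had an adjusted p of 0.0624 without the second WT library, Eif2s1 had 0.126 without the first, and Eif2d had 0.051 without the second, all in Mbd3cΔN-ab KO. Eif5b had 0.0649 and 0.0559 there without the first or the second WT library and 0.086 without the second Mbd3cΔN-ab KO library. The call of Eif2s2, Eif2a and Eif6 passed in all 4 refits of each mutant.

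Opposite to Eif2s1 and Eif2s2, every called subunit of eIF2B, the complex that reloads eIF2 with GTP, fell. All 5 called in Mbd3abc KO fell (median log2 fold change -1.25), and all 3 called in Mbd3cΔN-ab KO fell (median -0.98). Lower were 3892 of all 8132 genes called for Mbd3abc KO, and 2938 of all 5989 for Mbd3cΔN-ab KO. Among 5 GC classes of called genes in Mbd3abc KO, Eif2s1 and Eif2s2 lay in the lowest, where 98.4% were higher. The eIF2B subunits lay in class 2 (Eif2b3, 86.1% higher), 3 (Eif2b1, 45.0%), 4 (Eif2b2 and Eif2b5, 20.7%) and 5 (Eif2b4, 10.4%). In Mbd3cΔN-ab KO all 3 lay in class 4, with 14.1% higher. The part of GC content was not tested. Eif2b5, the catalytic epsilon subunit, had 1272 and 1220.2 normalized reads in Mbd3abc KO, against 3315 and 3054 in WT (2.56-fold lower, log2 fold change -1.34 ± 0.12 (SE), DESeq2 adjusted p = 8.29e-30 in the authors' deposited table). In Mbd3cΔN-ab KO it had 1929 and 1637, against 3146 and 2918 in WT (1.70-fold lower, DESeq2 adjusted p = 6.07e-06 in the authors' deposited table). Eif2b2, the beta subunit, had 274 and 321 in Mbd3abc KO, against 801 and 771 in WT (2.65-fold lower), and 372 and 380.3 in Mbd3cΔN-ab KO, against 759.9 and 737 in WT (1.99-fold lower). Eif2b4, the delta subunit, was 2.39-fold lower in Mbd3abc KO and 2.03-fold lower in Mbd3cΔN-ab KO. Groups stayed apart for all of these, as for every called gene in both tables. Among the kinases that phosphorylate eIF2, Eif2ak2 (PKR, which responds to double-stranded RNA) had 344 and 309 in Mbd3abc KO, against 125 and 118 in WT (2.69-fold higher), and 169.6 and 252 in Mbd3cΔN-ab KO, against 119 and 113 in WT (1.82-fold higher). Eif2ak1, the haem-regulated kinase, was 1.21-fold lower in Mbd3abc KO, and the kinases of the endoplasmic reticulum and of amino acid shortage, Eif2ak3 and Eif2ak4, were not listed. The small changes of Eif2ak1, Eif2b1 and Eif2b3 in Mbd3abc KO passed in none of the 4 refits without a library, with adjusted p-values between 0.0866 and 0.843. Eif2ak2 in Mbd3cΔN-ab KO had 0.342 and 0.394 without the first or the second WT library and 0.523 without the second mutant library. Without the first WT library Eif2b2 and Eif2b5 there had 0.0554 and 0.0772.

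The subunits of eIF3, the scaffold that joins mRNA and small ribosomal subunit, split into a rising and a falling set. There were 5 that rose and 6 that fell in Mbd3abc KO, and 5 of each in Mbd3cΔN-ab KO. Of the called subunits 45.5% rose in Mbd3abc KO and 50% in Mbd3cΔN-ab KO. These shares were near those of all called genes, 52.1% and 50.9%. Those that rose had a transcript GC content from 40.1% (Eif3j2) to 44.5% (Eif3a). Those that fell had 49.6% (Eif3c) to 55.9% (Eif3b), and the part of GC content was not tested. Eif3e had 3132 and 3832 normalized reads in Mbd3abc KO, against 1130.2 and 988 in WT (3.29-fold higher, DESeq2 adjusted p = 5.97e-19 in the authors' deposited table). Mbd3cΔN-ab KO libraries had 2204 and 3029 for Eif3e, against 1073 and 944 in WT (2.59-fold higher, DESeq2 adjusted p = 2.27e-08 in the authors' deposited table). Eif3a, the largest core subunit, was 2.43-fold higher in Mbd3abc KO and 1.74-fold higher in Mbd3cΔN-ab KO. Eif3j1 and Eif3j2, near-identical copies of the loosely bound j subunit, had almost equal reads in every library. Eif3j1 had 1008 and 1104 in Mbd3abc KO, against 270.3 and 313 in WT, and Eif3j2 had 1004 and 1101 in Mbd3abc KO, against 270.3 and 312 in WT, so reads may be shared between the copies and their 3.62-fold and 3.61-fold higher levels are uncertain for each. On the falling side, Eif3d, the subunit that can bind caps itself, had 2123 and 3230.2 in Mbd3abc KO, against 5833 and 6262 in WT (2.26-fold lower), and 2802 and 3317 in Mbd3cΔN-ab KO, against 5536 and 5985 in WT (1.88-fold lower). Eif3b, another core subunit, had 3519 and 4841 in Mbd3abc KO, against 8634 and 8847 in WT (2.09-fold lower), and 4341 and 4699 in Mbd3cΔN-ab KO, against 8194 and 8455 in WT (1.84-fold lower). Core subunits of the complex stood on both sides, Eif3a above and Eif3b below WT in all 4 mutant libraries. Eif3h, Eif3i and Eif3k were not listed. Eif3j1 and Eif3j2 had an adjusted p of 0.0759 and 0.0758 in Mbd3cΔN-ab KO without the first WT library, while Eif3a, Eif3b, Eif3d and Eif3e passed in all 4 refits of each mutant.

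Cap-binding and poly(A)-binding genes rose and fell as well. In Mbd3abc KO cells 6 rose and 4 fell, and in Mbd3cΔN-ab KO cells 6 rose and 5 fell. The shares that rose, 60% and 54.5%, were near the 52.1% and 50.9% of all called genes. Pabpc1, the main cytoplasmic poly(A)-binding protein, had 39045 and 47159 normalized reads in Mbd3abc KO, against 16195 and 18008 in WT (2.52-fold higher, DESeq2 adjusted p = 3.07e-14 in the authors' deposited table). The Mbd3cΔN-ab KO libraries had 32484 and 42363 for Pabpc1, against 15371 and 17210.4 in WT (2.30-fold higher, DESeq2 adjusted p = 2.26e-08 in the authors' deposited table). Pabpc4 was listed only for Mbd3cΔN-ab KO and was 1.36-fold lower there. Eif4e, which binds the cap, had 1762 and 2048 in Mbd3abc KO, against 841 and 953 in WT (2.12-fold higher), and 1382 and 1702 in Mbd3cΔN-ab KO, against 798 and 910.4 in WT (1.81-fold higher). Its inhibitor Eif4ebp1 had 1564 and 2243 in Mbd3abc KO, against 2954 and 3072 in WT (1.58-fold lower), and 1595 and 2023 in Mbd3cΔN-ab KO, against 2804 and 2936 in WT (1.59-fold lower). Eif4g1, the scaffold between cap and ribosome, was 1.27-fold lower in Mbd3abc KO and 1.23-fold lower in Mbd3cΔN-ab KO. The largest folds were of genes hardly detected in WT. Pabpc4l, named for its likeness to these proteins, had 77.3 and 89.7 in Mbd3abc KO, against 6.44 and 11.4 in WT (9.35-fold higher), and 68.6 and 75.4 in Mbd3cΔN-ab KO, against 6.11 and 10.9 in WT (8.46-fold higher). Eif4e3, a cap-binding relative of eIF4E, had 71.5 and 70.6 in Mbd3abc KO, against 7.72 and 11.4 in WT (7.42-fold higher), and 75.8 and 37.3 in Mbd3cΔN-ab KO, against 7.33 and 10.9 in WT (6.20-fold higher).

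The helicase genes of the cap complex moved apart. Eif4a2 had 10379 and 10502 normalized reads in Mbd3abc KO, against 3868 and 3430.4 in WT (2.86-fold higher, DESeq2 adjusted p = 8.20e-34 in the authors' deposited table), and 6408 and 6381 in Mbd3cΔN-ab KO, against 3671 and 3279 in WT (1.84-fold higher, adjusted p = 1.91e-11). Its close relative Eif4a1 had 13270.0 and 13686 in Mbd3abc KO, against 17753 and 18509 in WT (1.35-fold lower), and 13291 and 14026 in Mbd3cΔN-ab KO, against 16849 and 17689.8 in WT (1.26-fold lower). Eif4a3, the relative that marks spliced exon junctions, was 1.75-fold lower in Mbd3abc KO and 1.67-fold lower in Mbd3cΔN-ab KO. Per length of transcript, the level of Eif4a2 over that of Eif4a1 was 0.46 and 0.452 in Mbd3abc KO and 0.284 and 0.268 in Mbd3cΔN-ab KO, against 0.128 and 0.109 in WT. The ratio was higher in all 4 mutant libraries than in the WT libraries, and highest in Mbd3abc KO. In refits without the first or the second WT library the adjusted p of Eif4a1 was 0.267 and 0.36 in Mbd3abc KO and 0.413 and 0.593 in Mbd3cΔN-ab KO. That of Eif4g1 was 0.505 and 0.49 in Mbd3abc KO and 0.614 and 0.634 in Mbd3cΔN-ab KO, and that of Eif4ebp1 was 0.128 and 0.171 in Mbd3abc KO and 0.099 and 0.152 in Mbd3cΔN-ab KO. Eif4g1 also had 0.1 without the first Mbd3abc KO library and 0.0532 without the first Mbd3cΔN-ab KO library. In Mbd3cΔN-ab KO, Eif4e3 had 0.148, 0.0762 and 0.219 without the first WT, the second WT and the first mutant library, Pabpc4 had 0.334, 0.484 and 0.16 without the same libraries, and Eif4e had 0.0833 without the first WT library. Eif4a3 had 0.0557 in Mbd3abc KO and 0.082 in Mbd3cΔN-ab KO without the second WT library. Eif4a2, Pabpc1 and Pabpc4l passed in all 4 refits of each mutant.

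Of the elongation genes, 2 rose and 4 fell in Mbd3abc KO, and 2 rose and 2 fell in Mbd3cΔN-ab KO. Of all called genes 52.1% rose in Mbd3abc KO and 50.9% in Mbd3cΔN-ab KO. Eef2, which moves the ribosome along, had the highest WT level per transcript length of the translation genes listed for Mbd3abc KO. It had 44544 and 53352 normalized reads in Mbd3abc KO, against 74629 and 79993 in WT (1.58-fold lower, DESeq2 adjusted p = 9.28e-05 in the authors' deposited table). It was not listed for Mbd3cΔN-ab KO. Eef1g, of the complex that recharges eEF1A, had 7648 and 12733 in Mbd3abc KO, against 20078 and 24347 in WT (2.18-fold lower), and 10236 and 13135 in Mbd3cΔN-ab KO, against 19055 and 23269 in WT (1.81-fold lower). Eef1d, of the same complex, had 1221 and 1918 in Mbd3abc KO, against 3470.5 and 3814 in WT (2.32-fold lower), and 1538 and 1808 in Mbd3cΔN-ab KO, against 3294 and 3645 in WT (2.07-fold lower). Eif5a2, a relative of the hypusine-bearing factor eIF5A, went the other way. It had 305 and 321 in Mbd3abc KO, against 77.2 and 59.5 in WT (4.58-fold higher), and 174 and 211 in Mbd3cΔN-ab KO, against 73.3 and 56.9 in WT (2.96-fold higher). Eef1a1, the tRNA-delivering factor itself, and Eef1b2 of the recharging complex were not listed. Of 11 genes with these symbols known to carry a 5' terminal oligopyrimidine tract, which ties their translation to mTOR, 3 rose and 4 fell in Mbd3abc KO, and 3 rose and 2 fell in Mbd3cΔN-ab KO. Without the first or the second WT library the adjusted p of Eef2 was 0.0562 and 0.113, and in Mbd3cΔN-ab KO that of Eef1g and Eif5a2 was 0.0615 and 0.0841 without the second WT library.

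All 3 listed termination genes rose in Mbd3abc KO, where 52.1% of all called genes rose. Etf1, which codes for the release factor eRF1, had 5042 and 6185 normalized reads in Mbd3abc KO, against 3179.6 and 3379 in WT (1.71-fold higher, DESeq2 adjusted p = 1.85e-05 in the authors' deposited table), and 3883 and 5221 in Mbd3cΔN-ab KO, against 3018 and 3229 in WT (1.46-fold higher, adjusted p = 0.0246). Gspt1 and Gspt2, the genes of the GTPase eRF3, were 1.37-fold and 1.48-fold higher in Mbd3abc KO and were not listed for Mbd3cΔN-ab KO. Groups were apart, as for every called gene, but by small margins. Gspt2 passed in none of the 4 refits without a library (adjusted p between 0.244 and 0.762), and Gspt1 had 0.367 and 0.306 without the first or the second WT library and 0.0859 without the second Mbd3abc KO library. Etf1 had 0.0603 in Mbd3abc KO without the first WT library, and in Mbd3cΔN-ab KO 0.31, 0.18 and 0.0705 without the first WT, the second WT and the second mutant library. Among 29 other cytosolic translation genes, 12 rose and 9 fell in Mbd3abc KO, and 9 rose and 10 fell in Mbd3cΔN-ab KO. Of those called 57.1% and 47.4% rose, near the 52.1% and 50.9% of all called genes. Rps6kb1, the S6 kinase downstream of mTOR, had 758 and 733 in Mbd3abc KO, against 151 and 157 in WT, and Gcn1l1, the mouse form of a partner of the GCN2 kinase, had 2579.8 and 2743 in Mbd3abc KO, against 6886 and 6197 in WT.

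The direction of change followed the base composition of the transcripts, for these genes as for all called genes. Members that rose in Mbd3abc KO had a median GC content of 43.4% and those that fell 53.5%, and in Mbd3cΔN-ab KO the medians were 42.5% and 54.1%. When all called genes of Mbd3abc KO were split into 5 classes of equal size by GC, the share that was higher ran through 98.4%, 86.1%, 45.0%, 20.7% and 10.4% from the lowest to the highest class. The translation genes in those classes numbered 14 higher and 0 lower, 12 and 3, 1 and 13, 1 and 16, and 0 and 10. In Mbd3cΔN-ab KO the shares were 99.2%, 92.9%, 42.3%, 14.1% and 6.28%, and the translation genes numbered 13 higher and 1 lower, 11 and 0, 1 and 10, 0 and 19, and 0 and 7. Dars, the synthetase that rose, had the lowest GC of the cytosolic synthetases, at 41.2%, and lay in the lowest class of both tables. Farsb and Lars, at 45.9% and 47.0%, fell in Mbd3abc KO in the class where 86.1% of called genes were higher. Lars passed in all 4 refits without a library, while Farsb had an adjusted p of 0.198 and 0.311 without the first or the second WT library and 0.116 without the first mutant library. Eif1b, at 53.8%, rose in the class where 20.7% were higher, although it passed in none of the 4 refits without a library (adjusted p between 0.065 and 0.671). Eif2s3y was the member that fell in the lowest class of Mbd3cΔN-ab KO. The part of GC content in these changes was not tested.

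**Figure D3:**
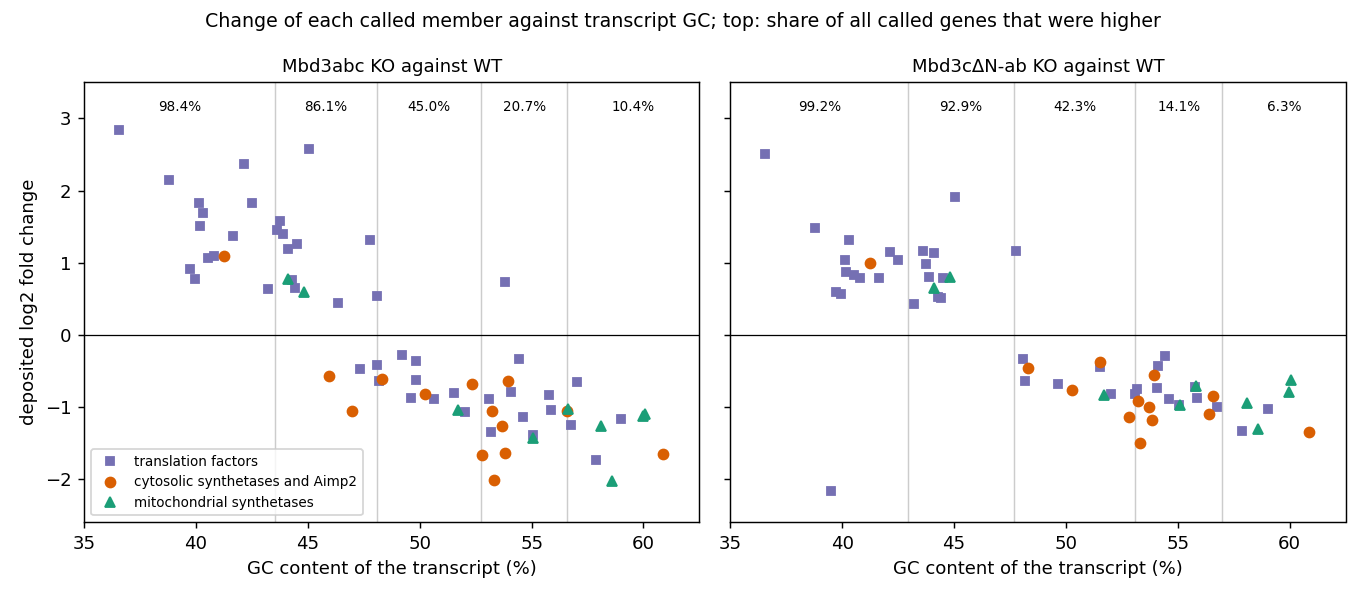
Deposited log2 fold change of each called translation gene against the GC content of its transcript (%), for Mbd3abc KO (left) and Mbd3cΔN-ab KO (right). Squares are translation factors, circles cytosolic synthetases with Aimp2 and triangles mitochondrial synthetases; lines bound the 5 GC classes, and the percentages above give the share of all called genes that were higher, 98.4% in the lowest and 10.4% in the highest class of Mbd3abc KO.

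On chromosome 8, 35.4% of the 322 genes called in Mbd3cΔN-ab KO were higher, against 51.8% of those on all other chromosomes together. The other chromosomes were not compared singly. The 5 translation genes of chromosome 8 called in Mbd3cΔN-ab KO, Aars, Kars, Farsa, Cars2 and Eif4ebp1, all fell. Their transcripts lay in GC classes 3 and 4, in which 42.3% and 14.1% of all called genes were higher. The part of the chromosome in these changes was not tested. In Mbd3abc KO 60.4% of 338 called genes on chromosome 8 were higher, and both translation genes listed there, Farsa and Eif4ebp1, fell. In Mbd3cΔN-ab KO Cars2, a mitochondrial synthetase gene, had an adjusted p of 0.514, 0.173 and 0.134 without the first WT, the second WT and the first mutant library. Without chromosome 8 the cytosolic synthetases numbered 12 lower in Mbd3abc KO and 9 lower in Mbd3cΔN-ab KO.

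Called in both mutants were 57 translation genes, and both comparisons share the WT libraries. The deposited change was the larger one in Mbd3abc KO for 55 of them (96.5%) and for 5037 of all 5494 genes called in both (91.7%). The exceptions were Nars2, at 0.59 in Mbd3abc KO and 0.81 in Mbd3cΔN-ab KO, and Eif4ebp1, at -0.64 in Mbd3abc KO and -0.65 in Mbd3cΔN-ab KO. The difference itself was tested with edgeR's quasi-likelihood test on the reads of all 6 libraries, over the 5413 genes listed in both tables with equal WT reads, of which 7.17% passed. Of the 57 genes, 4 passed, a share near that of all genes, and 14 had an unadjusted p under 0.05. Without the first Mbd3abc KO library the difference changed sign for 10 of the 57, all lower in Mbd3abc KO with every library: Aimp2, Eef1d, Eef1e1, Eef1g, Eif4ebp1, Eif4g1, Farsa, Gars, Iars and Wars.

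Eif2s2 had 10705 and 10571 reads, normalized over the 6 libraries, in Mbd3abc KO, against 4626 and 4639.8 in Mbd3cΔN-ab KO, where WT had 2003 and 2344. It was higher in Mbd3abc KO by a log2 difference of 1.20 (edgeR adjusted p = 0.00812), and both libraries of each mutant were close to each other. Eif4a2 had 10153 and 9906 in Mbd3abc KO, against 6752 and 6351 in Mbd3cΔN-ab KO, where WT had 3902 and 3563 (log2 difference 0.61, edgeR adjusted p = 0.0313). Eif2b5 had 1244 and 1151 in Mbd3abc KO, against 2032 and 1629 in Mbd3cΔN-ab KO, where WT had 3343 and 3171 (log2 difference -0.61, edgeR adjusted p = 0.048). Vars2 had 179.6 and 219.6 in Mbd3abc KO, against 321 and 351 in Mbd3cΔN-ab KO, where WT had 923 and 872 (log2 difference -0.75, edgeR adjusted p = 0.0412). In all 4 genes Mbd3cΔN-ab KO stood between Mbd3abc KO and WT. Over 13 alternative settings Eif2s2 passed in 12 (adjusted p from 7.54e-15 to 0.0548), Eif4a2 in 7 (0.000173 to 0.112), Vars2 in 6 (0.0075 to 0.129) and Eif2b5 in 5 (0.00608 to 0.132). Without the second WT library none of the 57 passed, and without the first WT library, the first Mbd3abc KO library or either Mbd3cΔN-ab KO library 1 passed. Sars, the cytosolic synthetase with the lowest log2 fold change in both mutants, did not pass, with a log2 difference of -0.47 (edgeR adjusted p = 0.288) and of 0.0016 without the second Mbd3cΔN-ab KO library.

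**Figure D4:**
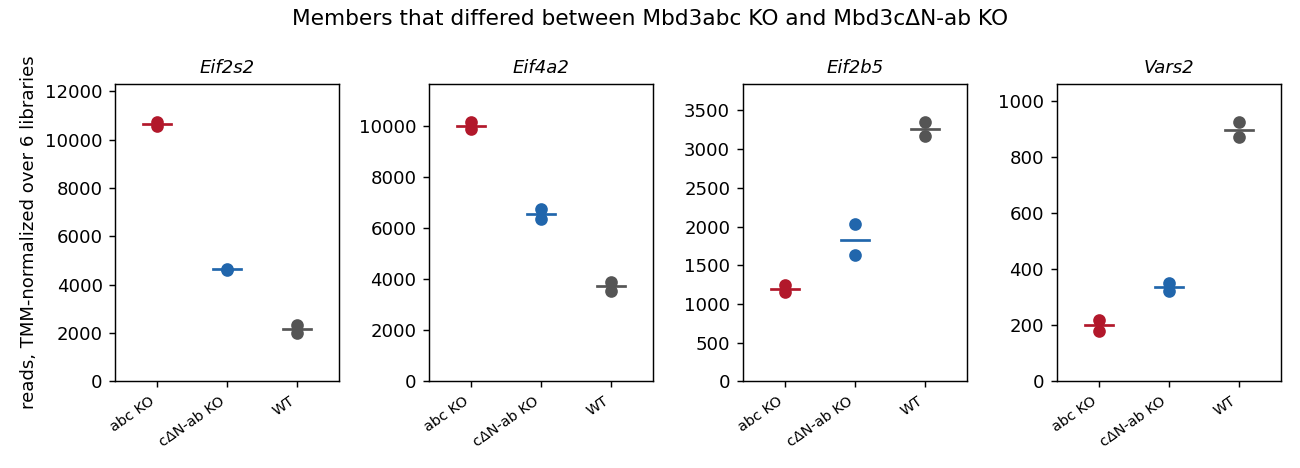
Reads normalized over the 6 libraries for the 4 translation genes that passed the test between Mbd3abc KO and Mbd3cΔN-ab KO. Points are libraries (2 each of Mbd3abc KO, Mbd3cΔN-ab KO and WT, left to right) and lines are means; Mbd3cΔN-ab KO lies between the other groups in each panel.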

How the data were processed

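Per the labels' protocols, total RNA of 10 libraries was depleted of ribosomal RNA and made into strand-specific libraries. TopHat2, HOMER and DESeq2 were used with build mm10, per the submitters' processing notes. HOMER counted exon reads with its strand option at minus and 1 transcript kept per gene, per the file headers. Tool versions: not given in the sources used here.

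There were 4 tables, 1 per mutant with WT, each listing selected genes. As deposited by the authors, the read columns hold a signal that was multiplied by 1 factor per library, taken here as scaling to equal library totals, before the tables were made. Of the columns of per-sample values, 0 were left unused. The authors' deposited columns also hold a log2 fold change with SE, a p-value with its adjusted value, and a Wald score that was not used. Column names gave groups but no replicate numbers.

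For Mbd3abc KO and Mbd3cΔN-ab KO, all values (100% in each library) were whole multiples of the value of 1 read, within 0.006, so reads were recovered. The number of reads behind a value is therefore known up to the authors' counting. Size factors were obtained by fitting the deposited mean level on the library columns. Folds are ratios of group means of normalized reads, n = 2 libraries each, and are comparable within a table only. The main calls are the authors' at an adjusted p of 0.05. As alternatives, the listed genes were refitted, with p-values adjusted for all 15622 and 14429 genes that the authors had tested. edgeR 4.0.16 (quasi-likelihood) on recovered read counts called 7804 of the 8141 genes listed for Mbd3abc KO and 5509 of the 6000 listed for Mbd3cΔN-ab KO. DESeq2 1.42.0 and limma 3.58.1 (log2 of normalized reads plus 1 or plus 10) were run likewise in R 4.3.3. The contrast of the 2 mutants used edgeR with TMM on 5413 genes. Tested on simulated data for that contrast (5413 genes), it recovered 88% of 2-fold changes with 2.08% false calls. Every simulated gene had the same spread beyond counting noise, and changed genes were not selected by a test against WT first. These shares therefore do not measure the error rate of the calls made here.

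GC content came from GENCODE transcript sequences, averaged over those mapped to the RefSeq transcript that was counted. Where none was mapped, the longest GENCODE transcript of the same symbol was used. Either way gave a value for 99.7% of called genes. Genes named in the text are, per role group and mutant, the 2 called members with the highest and the 2 with the lowest deposited log2 fold change, those past the threshold between the mutants, and a set of central factors named whatever their values. Others are named after their values were seen: Aars, Farsa, Cars2, Gars, Eef2k, Eif1b, Eif2b1, Eif2b3, Eif3a, Eif4a1, Pabpc4 and Iars2. The rule does not cover Aars2, Ears2, Fars2, Pars2, Sars2 and Wars either. Nor does it cover Cth, Trib3, Slc1a4, Rps6kb1 and Gcn1l1, which are named from the other gene lists. The members and gene lists were chosen with earlier results of these data known.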

Additional observations from a re-analysis of the deposited data

Results flagged for a closer look

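For 4 genes called in both strong mutants, the difference between Mbd3abc KO and Mbd3cΔN-ab KO itself passed edgeR's quasi-likelihood test over 6 libraries. These are 4 of 57, a share near the 7.17% of all 5413 genes that passed. Eif2s2 (eIF2 beta) was higher in Mbd3abc KO by 1.20 on the log2 scale and Eif4a2 by 0.61. Eif2b5 (eIF2B epsilon) was lower, with a log2 difference of -0.61, and so was Vars2, with -0.75. The call of Eif2s2 passed in 12 of 13 alternative settings, that of Eif4a2 in 7, that of Vars2 in 6 and that of Eif2b5 in 5.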

How the results depend on the processing

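No change against WT of a called gene described here reversed under the alternatives run. The difference between the mutants changed sign for 18 of the 57 genes in at least 1 of 13 settings, among them 10 without the first Mbd3abc KO library and none of the 4 that passed the test. Asking for a deposited change of at least 2-fold left 41 called genes in Mbd3abc KO (18 higher, 23 lower) and 20 in Mbd3cΔN-ab KO (10 higher, 10 lower). Called synthetases and Aimp2 in the cytosol, counted in settings chosen after seeing the data, were then 8 lower in Mbd3abc KO, and 5 lower and 0 higher in Mbd3cΔN-ab KO. The cause was not tested. An adjusted p of 0.01, a minimum level, leaving out chromosome 8, edgeR, limma and a DESeq2 refit kept every count within 1.5 times. Refits without 1 library, which give a lone library the spread of the other group, called 45 to 63 genes in Mbd3abc KO (19 to 25 higher, 25 to 39 lower, 8 to 13 cytosolic synthetases and Aimp2 lower and 1 higher). In Mbd3cΔN-ab KO they called 30 to 55 (10 to 23 higher, 17 to 35 lower, 8 to 12 cytosolic synthetases and Aimp2 lower and 1 higher). The lowest counts came without a WT library, 46 and 45 in Mbd3abc KO and 30 and 30 in Mbd3cΔN-ab KO, when the calls of all genes kept were 43.2% and 44.8% in Mbd3abc KO and 27.1% and 27.9% in Mbd3cΔN-ab KO. In these refits 41 genes of Mbd3abc KO and 22 of Mbd3cΔN-ab KO passed every time. Genes differing between the mutants numbered 4, but 2 with the authors' size factors, 7 with at least 10 reads in every library, 9 by DESeq2, 1 with only the 4 mutant libraries, and 0 to 5 without 1 library. No paired analysis was possible because the columns carry no replicate numbers. The refits could not be run for Mbd3ab KO and Mbd3c KO, since no gene described here is in those tables, and stricter thresholds could only leave their counts at 0. With 2 libraries a group, small changes rest on little.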
